A study of Rattus norvegicus with 20 samples.

Results

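This report describes a split of the hippocampal RNA-seq libraries that cuts across the groups of the study. The row AY172581.24 (ENSRNOG00000043866), a row of the mitochondrial genome, took from 2.93% to 11.6% of all counts on genes, and the libraries were divided by that share. A library was placed in the high class when AY172581.24 held 8% or more of its counts and in the low class at 5% or less. This rule put 18 of the 20 libraries in a class, 10 in the high and 8 in the low class, and left out 2 that lay between the limits. Since the classes were chosen by AY172581.24 itself, its level is given as a description and was not tested.

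All rats were of the outbred Long Evans stock and their hippocampus was collected when they were 24 weeks old. Each library came from a separate rat. Wild-type (wt) rats carried both copies of the rat segment homologous to human 16p11.2, and Del/+ littermates carried 1 of 2 copies. Each of the 4 groups (female wt, female Del/+, male wt and male Del/+) had 5 rats. The high class held 3 female wt, 2 male wt and 5 female Del/+ libraries, and the low class held 2 female wt, 1 male wt and 5 male Del/+ libraries. Both libraries between the limits were of male wt rats. All female Del/+ libraries were thus in the high class and all male Del/+ libraries in the low class, so within Del/+ rats sex and share cannot be told apart. Within wt rats both sexes occurred in both classes.

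Mitochondrial DNA is read from both strands into long precursors that are cut into messenger, ribosomal and transfer RNAs, and these RNAs make up a large and variable part of brain RNA. The messenger RNAs encode core subunits of the respiratory chain and of ATP synthase, while all other subunits, the proteins of the mitochondrial ribosome and the factors that make or stabilise mitochondrial RNA come from nuclear genes. The files list 37 rows of the mitochondrial genome. Of these, 13 carry the symbol of a protein gene and 24, AY172581.24 among them, carry only a clone name, and the files do not say which of the latter are the ribosomal and which the transfer RNAs.

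The share was 2.93% to 4.98% in the low class, with a median of 3.96%, and 8.69% to 11.6% in the high class, with a median of 9.58%. The 2 libraries just inside the upper limit, female Del/+ replicate 4 and male wt replicate 5, had 8.69% and 8.70%. Those just inside the lower limit, male Del/+ replicates 2 and 1, had 4.98% and 4.87%. Left out were male wt replicate 3 at 5.60% and male wt replicate 4 at 6.26%.

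**Figure D1:**
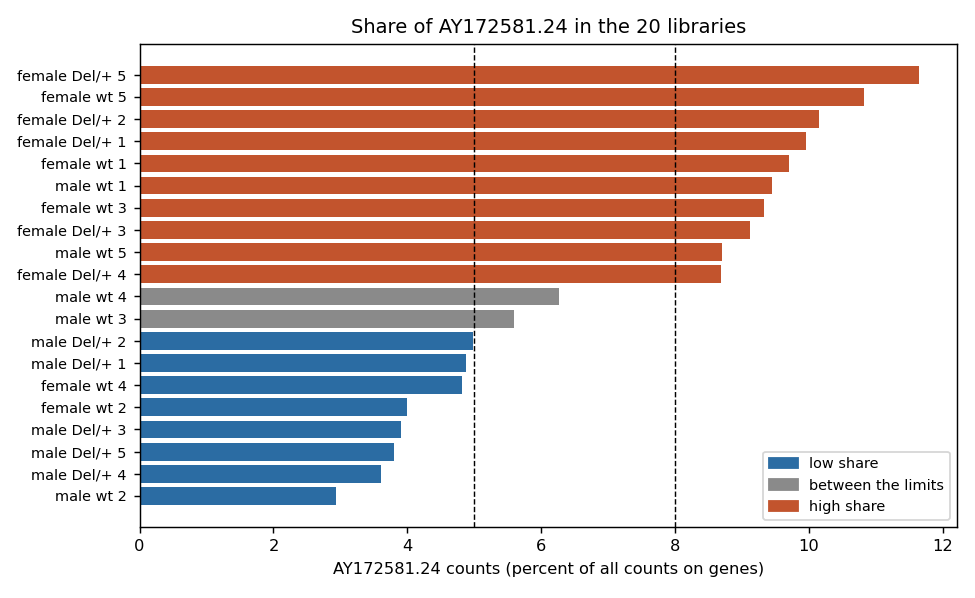
Counts of AY172581.24 as a percent of all counts on genes in each of the 20 libraries, with dashed lines at the limits of 5% and 8%. The 10 high share libraries begin at 8.69% and the 8 low share libraries end at 4.98%, with 2 male wt libraries at 5.60% and 6.26% between them.

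Depth did not separate the classes. Counts on genes ran from 38010233 to 44855320 in the low class (median 42478240) and from 37603623 to 47239480 in the high class (median 44411648). The number of genes with at least 1 count ran from 18794 to 20016 and from 18995 to 20604. Scaling factors did separate them, since the TMM method (trimmed mean of M values) gave factors of 1.06 to 1.09 in the low class and 0.872 to 0.996 in the high class. The labels were checked on Taok2, a gene of the deleted segment, and on a list of male-specific genes. Taok2 had 198.6 to 212 CPM (reads of a gene relative to the TMM-scaled library total) in the 10 wt libraries and 92.1 to 113 CPM in the 10 Del/+ libraries. The summed level of the male-specific list was at least 144.9 CPM in every male and at most 0.339 CPM in the females other than female wt replicate 4, a low share library with 5.13 CPM. Markers of hippocampal neurons were present in every library, with medians of 151 and 184 CPM in the low and high classes for Prox1, a transcription factor of dentate granule cells.

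The other rows of the mitochondrial genome were examined first. Together they held 3.80% to 5.57% of counts in the low class, with a median of 4.35%, and 6.48% to 11.3% in the high class, with a median of 8.14%. The 2 libraries between the limits had 5.38% and 5.48%, within the range of the low class. All 20 of these rows that had enough counts were positive in the comparison of high with low, with a median log2 difference of 0.60, against -0.01 for all genes tested. These rows belong to the same small genome as the row that chose the classes, so their differences are given with standard errors and without p-values.

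AY172581.9 (ENSRNOG00000030478) had the largest difference of these rows. It had 6499 CPM at the lowest, 8759 at the median and 13244 at the highest in the low class, against 32676, 41523 and 72324 CPM in the high class. The classes did not overlap, and both libraries between the limits, at 22492 and 23031 CPM, fell in the gap. The log2 difference was 2.39 (SE 0.18), with 2.40 (SE 0.22) when sex was added to the fit and 2.47 (SE 0.26) in wt libraries alone. AY172581.24 itself differed less in proportion, with a median of 36668 CPM in the low class and 102055 CPM in the high class. The ratio of AY172581.9 to AY172581.24 counts was accordingly 0.173 to 0.291 in the low class and 0.351 to 0.650 in the high class, and 0.372 and 0.404 in the libraries between.

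The messenger RNAs of the mitochondrial genome differed less than AY172581.9 and unequally among themselves. Mt-nd6, the complex I subunit encoded on the opposite strand to the other protein genes, had 151 to 286 CPM in the low class (median 217) and 275 to 682 CPM in the high class (median 457), a log2 difference of 1.06 (SE 0.21). Mt-nd2, a complex I subunit, had a difference of 0.84 (SE 0.17), with medians of 1052 CPM in the low and 1926 CPM in the high class. Mt-cyb, the subunit of complex III, had 1915 to 2841 CPM against 2799 to 5304 CPM, a difference of 0.69 (SE 0.13). The complex I subunits Mt-nd5 and Mt-nd1 differed by 0.67 (SE 0.13) and 0.62 (SE 0.16), and Mt-atp6 of ATP synthase by 0.51 (SE 0.13).

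The subunits of cytochrome c oxidase, complex IV, were lower in this order. Mt-co3 had 1750 to 2405 CPM in the low class and 2455 to 3370 CPM in the high class, without overlap, and a log2 difference of 0.42 (SE 0.07). Mt-co2 differed by 0.24 (SE 0.09). Mt-co1 had 11224 to 15896 CPM in the low class and 11501 to 19446 CPM in the high class, ranges that overlapped over most of their length, and a difference of 0.10 (SE 0.10). The complex I subunit Mt-nd3 gave 0.05 (SE 0.14). With sex in the fit Mt-co1 and Mt-nd3 turned to -0.02 and -0.14, and both were below 0 under library size scaling. Some neighbours in this order, such as Mt-cyb and Mt-nd5, lay within their standard errors of each other, and the differences between rows were not tested. Mt-nd4, Mt-nd4l and Mt-atp8 share bases with a neighbouring gene, as does Mt-atp6 with Mt-atp8, so their counts are uncertain. Mt-atp6 was kept in the order. Mt-nd4, Mt-nd4l and Mt-atp8 were left out, and differed by 0.59 (SE 0.15), 0.72 (SE 0.36) and 0.62 (SE 0.50). Mt-nd4 had 4.25 to 14.6 CPM in the libraries of both classes, and why it was so low was not tested. In wt libraries alone Mt-nd6 gave 0.85 (SE 0.32), Mt-cyb 0.56 (SE 0.17), Mt-co3 0.31 (SE 0.08) and Mt-co1 0.01 (SE 0.15). Under library size scaling the median of all genes shifted to -0.20, while that of the mitochondrial rows was 0.41.

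**Figure D2:**
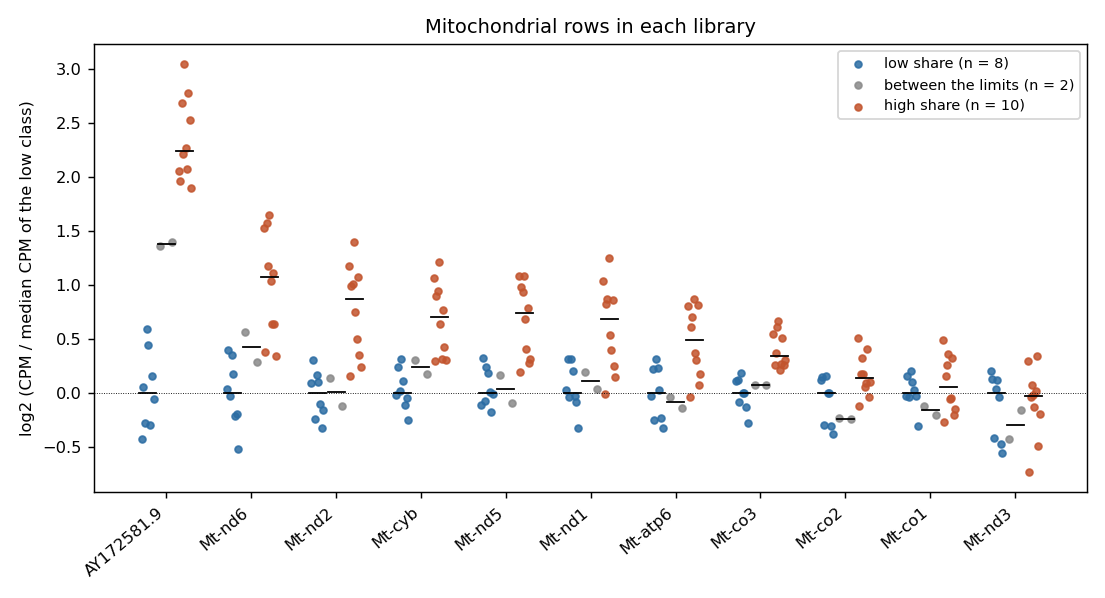
Level of 11 rows of the mitochondrial genome in each library, as log2 of the CPM over the median CPM of the low share class (points, 1 per library; black lines, medians of the 8 low, 2 between and 10 high share libraries). AY172581.9 does not overlap between the classes, Mt-nd6 and Mt-cyb lie mostly higher in the high class, and Mt-co1 and Mt-nd3 overlap over most of their range.

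Across all genes, the classes were then compared with genotype as a covariate, with edgeR's quasi-likelihood test, and genes passed when their Benjamini-Hochberg adjusted p was below 0.05. Of 16120 genes, 856 passed (5.31%), of which 679 were higher (4.21%) and 177 lower (1.1%) in the high class. The differences were small, with a median log2 value of 0.28 in the genes called higher and -0.22 in those called lower, and 58 of the 856 exceeded a fold of 1.5 and 14 a fold of 2. Levels in the classes did not overlap for 73 genes (0.453%), 68 of them higher (0.422%) and 5 lower (0.031%). Scaling by library size alone, which leaves the mitochondrial RNA in the total, turned this split over, to 171 higher and 7153 lower. Directions below are therefore relative to the bulk of the genes. The number of calls depended on the rats included, and fell to 535 without female wt replicate 2, 569 without female Del/+ replicate 1, 493 without male Del/+ replicate 2, 500 without male Del/+ replicate 3 and 553 without male Del/+ replicate 4.

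With sex added to genotype, 292 of 16608 genes passed (1.76%), 262 higher (1.58%) and 30 lower (0.181%), and 264 of these were among the 856. By their RefSeq names 15 of the 856 genes lay on chromosomes X or Y. The share of all tested genes on these chromosomes was not counted, so this number cannot show whether such genes were called more or less often. In wt libraries alone, 5 high against 3 low with sex as a covariate, edgeR called 0 of 16322 genes. There 1687 had an unadjusted p under 0.05, 863 higher and 824 lower, and DESeq2 called 164, 123 higher and 41 lower. Within females (8 high, 2 low) and within males (2 high, 6 low) edgeR likewise called 0 genes. An unadjusted p under 0.05 was found in 1022 of 16494 and 879 of 17110 genes. Where nothing differs, a fraction of about 0.05 of genes falls under that limit. DESeq2 was not run within a sex. The p-values cover the spread between rats only, and handling of the tissue or RNA that went with the share cannot be told apart from it.

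Among nuclear genes with a symbol, the 10 smallest p-values in the higher direction belonged to Sox9, Fbl, Pi4k2a, Ccar2, Rtf1, Crtc1, Ddit4, Mvb12b, Wasf1 and Gatad2b. Sox9 (ENSRNOG00000002607), a transcription factor of astrocytes and neural progenitors, had 26.0 CPM at the lowest, 29.0 at the median and 36.1 at the highest in the low class, and 38.9, 46.7 and 57.0 CPM in the high class. The classes did not overlap, and the libraries between the limits had 32.7 and 34.0 CPM. The log2 difference was 0.67 (SE 0.07, adjusted p = 3.4e-05), and 0.60 (SE 0.08) in wt libraries alone, where the adjusted p was 0.0796. Among 10 astrocyte markers tested, Sox9 was the only one called by edgeR, while DESeq2 called 2. Of these markers 3 were above and 7 below 0, with a median of -0.06.

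Fbl (ENSRNOG00000019229) encodes fibrillarin, the methyltransferase of the small nucleolar particles that modify ribosomal RNA. It had 3.29 to 5.64 CPM in the low class (median 4.54) and 7.03 to 10.3 CPM in the high class (median 8.42), with 6.27 and 6.65 CPM in the libraries between the limits. Every high share library was above every library between, and these above every low share library. Its log2 difference was 0.93 (SE 0.10, adjusted p = 4.6e-05), 0.93 (SE 0.12) with sex and 0.91 (SE 0.18) in wt libraries alone.

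Ddit4, a stress-induced inhibitor of mTOR signalling, had 10.8 to 16.3 CPM in the low class and 18.7 to 27.8 CPM in the high class, a log2 difference of 0.79 (SE 0.09, adjusted p = 6.1e-05). Here the libraries between the limits, at 14.3 and 14.6 CPM, were within the low class. The transcription regulators in this set were Crtc1, a coactivator of CREB, at 0.53 (SE 0.06), Ccar2 at 0.47 (SE 0.05), Gatad2b, a subunit of the NuRD complex, at 0.36 (SE 0.05) and Rtf1, an elongation factor, at 0.34 (SE 0.04). The remaining 3 were Wasf1, an actin regulator of neurons, at 0.54 (SE 0.07), Mvb12b, a subunit of the ESCRT-I sorting complex, at 0.39 (SE 0.05) and Pi4k2a, a lipid kinase of endosomes, at 0.38 (SE 0.04). All 10 of these genes were without overlap between the classes, and each also passed with sex in the fit. They were picked by their p-values in these same libraries, so neither result is independent of that choice. Of all genes, 0.422% were higher without overlap and 1.58% passed as higher with sex.

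Fewer genes passed in the lower direction. Cntn6, a neuronal adhesion molecule, had at least 7.52 CPM in the low class (median 8.99) and 5.19 to 7.35 CPM in the high class (median 6.66), without overlap, and a difference of -0.43 (SE 0.08, adjusted p = 0.0024). In the libraries between the limits it was at 6.07 and 6.96 CPM, inside the high class.

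Ngb, the neuronal haem protein neuroglobin, had a median of 3.49 CPM in the low class and 2.38 CPM in the high class, a log2 difference of -0.69 (SE 0.13, adjusted p = 0.0042). Lias, the lipoic acid synthase of mitochondria, differed by -0.27 (SE 0.05) and Depp1, a gene induced by FOXO factors, by -1.11 (SE 0.20) at levels of 2.98 CPM or less. Further genes among the smallest p-values were Ttc39b at -0.32 (SE 0.07), Rps3a at -0.27 (SE 0.06), Tubgcp5 of the gamma-tubulin complex at -0.23 (SE 0.05), Slc35f1 at -0.23 (SE 0.05) and Klhdc2 at -0.20 (SE 0.04). Of the genes named here in this direction, only Cntn6 and Klhdc2 did not overlap between the classes, and Ttc39b and Klhdc2 no longer passed with sex in the fit.

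**Figure D3:**
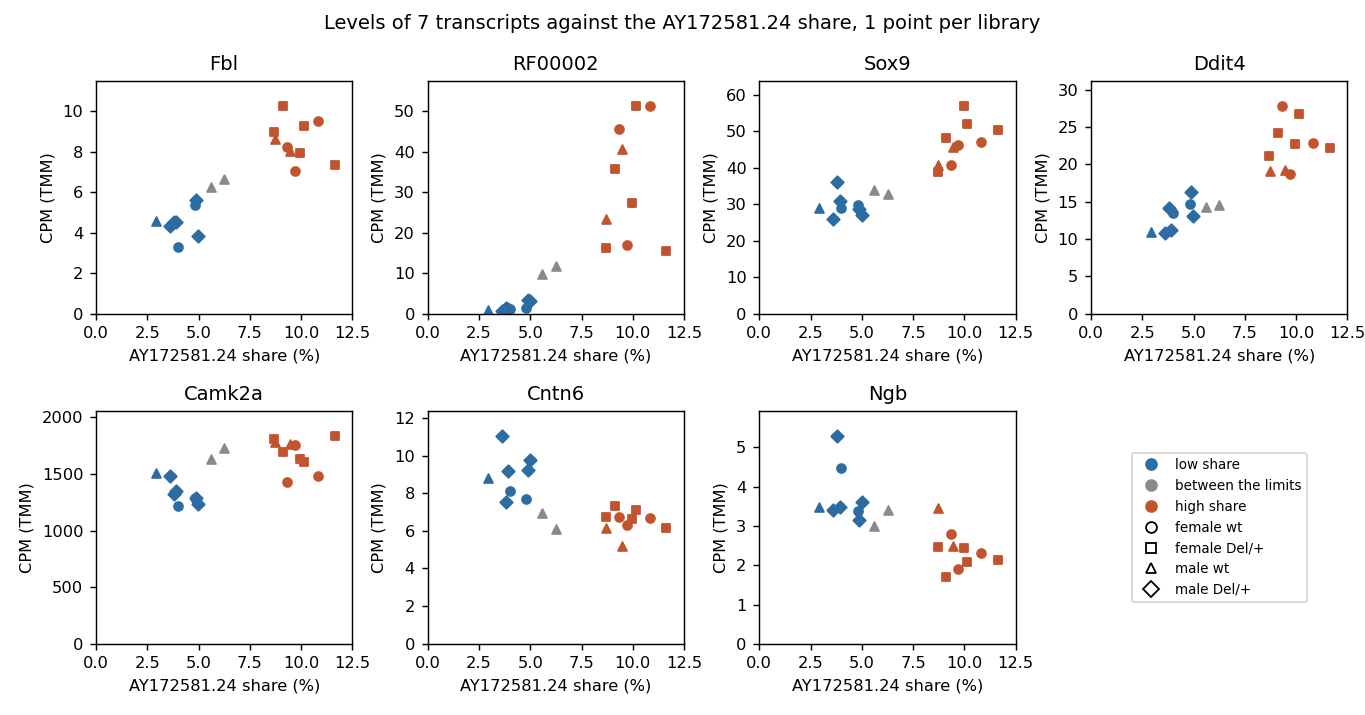
CPM after TMM scaling of Fbl, RF00002, Sox9, Ddit4, Camk2a, Cntn6 and Ngb against the AY172581.24 share, 1 point per library, with colour for the share class and symbol for sex and genotype. RF00002 is at most 3.26 CPM in the low class, 9.83 and 11.7 CPM between the limits and at least 15.4 CPM in the high class, and Fbl runs in the same order.

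The 2 male wt libraries between the limits had no part in the choice of these genes. On a log2 scale where the mean of the low class is 0 and that of the high class is 1, their shares stood at 0.37 (replicate 3) and 0.50 (replicate 4). The median position of the 669 nuclear genes called higher was 0.56 and 0.50, and that of the 177 called lower was 0.26 and 0.25. Both rats were male and wt, so these positions are a description of 2 libraries.

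Transcripts without a poly(A) tail were looked at as a class, since the libraries were made from polyA RNA. RF00002 (ENSRNOG00000051831), named by its family in the Rfam database, that of the 5.8S ribosomal RNA, was the only one of 230 tested rows of such small RNA families that edgeR called, while DESeq2 called 4. Over all genes 4.21% were called higher and 1.1% lower. Of the 230 rows 9 were in the top 2 of 10 bins by mean level, where calls were most frequent, so few calls could arise. RF00002 had 0.520 CPM at the lowest, 1.28 at the median and 3.26 at the highest in the low class, and 15.4, 31.5 and 51.2 CPM in the high class. With 9.83 and 11.7 CPM the libraries between the limits again fell in the gap. The log2 difference was 4.34 (SE 0.42, adjusted p = 6.1e-05), with 4.43 in the fit with sex and 5.02 (SE 0.56) in wt libraries alone.

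For the other small RNA families edgeR called 0 rows. Over all genes, 3220 of 16120 had an unadjusted p under 0.05, which is the share to set beside the counts below. The summed 7SK RNA rows, which belong to a regulator of transcription elongation, had 3630 to 4590 CPM in the low class and 3189 to 4353 CPM in the high class, and 0 of its 43 tested rows passed by edgeR or DESeq2, with 4 at an unadjusted p under 0.05. RNase MRP RNA, which cuts the precursor of ribosomal RNA, had medians of 892 and 1040 CPM with overlapping ranges. Signal recognition particle RNA had medians of 810 and 743 CPM and up to 4662 CPM in 1 high share library, and edgeR called 0 and DESeq2 1 of its 15 tested rows, with 6 at an unadjusted p under 0.05. Most histone messenger RNAs lack a poly(A) tail as well, and 0 of 31 tested histone genes passed by edgeR or DESeq2, with 4 at an unadjusted p under 0.05, a median log2 difference of 0.18 and 25 of 31 above 0. Under scaling by library size that median was -0.01.

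Rows that carry only a genomic clone name gave 23 of 1420 higher and 6 lower, smaller shares than the 4.21% and 1.1% of all genes. The largest differences of the 856 calls were among the clone-named rows. AABR07015081.2, chosen after its values were seen, had a median of 0.0579 CPM in the low class and 30.6 CPM in its highest library, male Del/+ replicate 5, against 33.7 to 813 CPM in the high class, a fitted log2 difference of 6.22 (SE 1.23, adjusted p = 0.0092, or 0.0548 with sex in the fit). The libraries between the limits had 0.474 and 11.9 CPM. AABR07015042.1 had a median of 0.149 CPM in the low and 6.10 CPM in the high class, a fitted difference of 4.61 (SE 0.72, adjusted p = 0.0019). Counts of both rows were near 0 in most low share libraries, so these fitted values depend on the prior count and set no bound. What the rows transcribe is not given in the files.

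Nuclear genes of the respiratory chain stood lower, if anything, where the mitochondrial RNA stood higher. Of 82 tested genes of the 5 complexes, 69 had a negative difference, with a median of -0.12, and 7 passed as lower and 2 as higher, against 1.1% and 4.21% of all genes. Their summed level was 7392 to 8610 CPM in the low class (median 8203) and 6850 to 7862 CPM in the high class (median 7628). Among those lower were the complex I subunit Ndufa2 at -0.23 (SE 0.06, adjusted p = 0.028), the complex II subunit Sdhb at -0.18 (SE 0.05), the complex III subunit Uqcrc2 at -0.16 (SE 0.04) and the complex IV subunit Cox7b at -0.26 (SE 0.06). The 2 that were higher were Cox8a of complex IV at 0.26 (SE 0.08) and Atp5f1d of ATP synthase at 0.26 (SE 0.06). With sex in the fit 0 of 83 passed by edgeR, 27 had an unadjusted p under 0.05, and the median was -0.11. Of the 16120 genes of the main fit, 2702 were under 0.05 with sex.

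Proteins of the mitochondrial ribosome gave 4 of 72 lower and 0 higher, with 61 of 72 below 0 and a median of -0.09, Mrps7 at -0.23 (SE 0.05, adjusted p = 0.013) among them, against 1.1% of all genes lower. With sex in the fit 1 of 72 passed, and Mrps7 did not (adjusted p = 0.0997). Genes for the upkeep of mitochondrial RNA gave 1 of 26 lower, the termination factor Mterf4 at -0.27 (SE 0.08), which did not pass with sex, and 0 higher. Tfam, which packages and transcribes mitochondrial DNA, had 20.2 to 25.0 CPM in the low class and 19.0 to 23.8 CPM in the high class, a difference of -0.08 (SE 0.06, adjusted p = 0.47). Lrpprc, which stabilises mitochondrial messenger RNA, differed by -0.09 (SE 0.05, adjusted p = 0.33). Neither passed the test.

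Proteins of the cytosolic ribosome gave 6 of 64 lower and 0 higher, with 50 of 64 below 0 and a median of -0.15, against 1.1% of all genes lower. With sex in the fit 2 of 65 passed as lower. Their summed level was 3690 to 4464 CPM in the low class and 3297 to 3900 CPM in the high class. The members that passed included Rps3a, at -0.27 (SE 0.06, adjusted p = 0.0080), and Rpl4, Rpl6, Rpl7 and Rpl24, between -0.20 and -0.24. Many of these genes have near-identical processed copies in the genome, and HTSeq-count in its usual setting leaves out reads that align to several places, so their levels are uncertain. The medians of the respiratory chain, the mitochondrial ribosome and the cytosolic ribosome were below 0 under every scaling, and under library size alone, where all genes stood at -0.20, they were -0.31, -0.29 and -0.34.

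Genes of the synapse went the other way. Of 18 tested postsynaptic genes 10 were higher and 0 lower, with a median of 0.19. Of 17 presynaptic genes 8 were higher and 0 lower, with a median of 0.14. Over all genes 4.21% were higher and 1.1% lower. Camk2b, a kinase of the postsynaptic density, had 1021 to 1368 CPM in the low class and 1343 to 1641 CPM in the high class, a difference of 0.27 (SE 0.06, adjusted p = 0.0067). The scaffold gene Shank1 differed by 0.48 (SE 0.10) and the NMDA receptor subunit Grin1 by 0.25 (SE 0.05). On the presynaptic side Vamp2, a SNARE protein of the vesicle, differed by 0.36 (SE 0.07) and Rims1 of the active zone by 0.26 (SE 0.06).

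With sex in the fit 3 postsynaptic and 2 presynaptic genes passed as higher, against 1.58% of all genes. Shank1 and Rims1 were not among them, and the list medians were 0.18 and 0.14. In wt libraries alone edgeR called 0 and DESeq2 1 of each list, with medians of 0.14 and 0.04. There 9 and 3 were at an unadjusted p under 0.05, against 1687 of 16322 over all genes. Scaling by library size put the medians of the 18 libraries at -0.01 and -0.05, above the -0.20 of all genes. Markers of excitatory neurons had 2 of 9 higher, against 4.21% of all genes, with 7 of 9 above 0 and a median of 0.11. Of these 9 genes 5 were in the highest of 10 bins by mean level, where 12% were called higher. Camk2a had 1217 to 1511 CPM in the low class and 1430 to 1833 CPM in the high class, a difference of 0.34 (SE 0.06, adjusted p = 0.0012), and Neurod2 differed by 0.39 (SE 0.10). Camk2a passed with sex in the fit and Neurod2 did not (adjusted p = 0.12). In both libraries between the limits Camk2a was within the high class, at 1629 and 1728 CPM. In bulk tissue fewer cells of a type and less RNA per cell cannot be told apart.

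**Figure D4:**
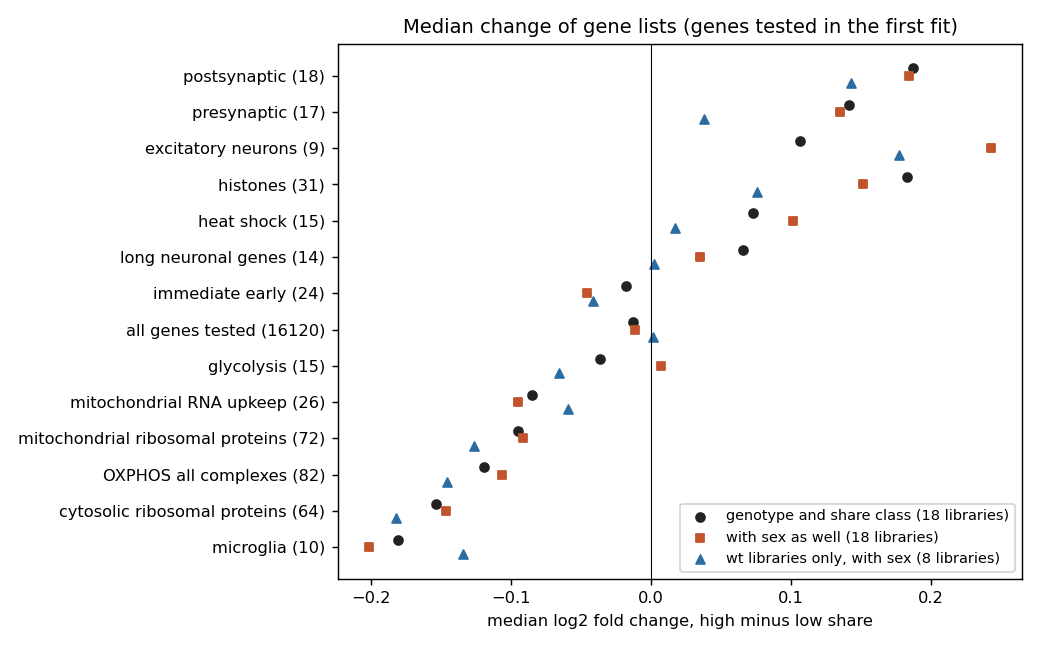
Median log2 difference, high minus low share, of 13 gene lists and of all genes tested, in the fit with genotype (circles), with genotype and sex (squares) and in wt libraries with sex (triangles). Synaptic lists lie to the right of 0 in all 3 fits, and the respiratory chain and both ribosomal lists lie to the left.

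Genes of the early response to neuronal activity were mixed, with 2 of 24 higher, Egr3 at 0.37 (SE 0.07) and Nr4a3 at 0.35 (SE 0.08), and 1 lower, Btg2 at -0.41 (SE 0.09). The heat shock list had 2 of 15 higher, the chaperone regulators Bag3 at 0.37 (SE 0.09) and Hsph1 at 0.20 (SE 0.05). In the integrated stress response list Ddit4 and Atf5, at 0.41 (SE 0.10), were the 2 of 15 that were higher, and the median was -0.04. In the glycolysis list 0 of 15 passed by edgeR or DESeq2, with 2 at an unadjusted p under 0.05. Of 14 long neuronal genes 2 were higher, among them Auts2 at 0.51 (SE 0.13). These counts stand beside 4.21% higher and 1.1% lower over all genes, and 3220 of 16120 at an unadjusted p under 0.05. Egr3 and Ddit4 passed with sex in the fit, while Nr4a3, Btg2, Bag3, Hsph1, Atf5 and Auts2 did not.

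Markers of cells and tissues beside hippocampal neurons varied with the classes in part. Microglia markers were all 10 below 0, with a median of -0.18, and Aif1 passed at -0.36 (SE 0.08), though not with sex in the fit (adjusted p = 0.13). Over all genes 8645 of 16120 were below 0, 1.1% were called lower and 3220 had an unadjusted p under 0.05. Oligodendrocyte markers were all 10 below 0 as well, with a median of -0.11 (0.02 with sex in the fit) and 0 called by edgeR or DESeq2. Blood markers were below 0 in all 7 genes tested, with a median of -0.62 and a summed level of 82.8 to 255 CPM in the low class and 61.4 to 160 CPM in the high class, and Slc4a1, the anion exchanger of red cells, passed at -1.48 (SE 0.39), at 0.805 CPM or less in every library of both classes, though not with sex (adjusted p = 0.16). Thalamus markers, which mark tissue next to the hippocampus, summed to 143 to 515 CPM in the low class (median 330) and to 150 to 580 CPM in the high class (median 167), with 0 of 10 past the test by edgeR or DESeq2 and 1 at an unadjusted p under 0.05. None of their 10 genes was at 0 in every library. Vessel markers were 4 above and 4 below 0, with a median of -0.0012, and endothelial Kdr, at 0.31 (SE 0.08), was the only one called by edgeR, while DESeq2 called 2.

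Choroid plexus markers, which come from the secretory epithelium of the ventricles, summed to 6.13 to 869 CPM in the low class and to 5.54 to 5588 CPM in the high class. They were highest in male wt replicate 1 at 5588 CPM and female Del/+ replicate 1 at 3288 CPM, both in the high class, and 0 of 8 tested passed by edgeR or DESeq2, with 5 at an unadjusted p under 0.05 and a median of 3.38. Over all genes, 3220 of 16120 were at an unadjusted p under 0.05. Of the 10 choroid plexus markers 1 was at 0 in every library. Leaving out those 2 libraries left 410 calls, 368 higher and 42 lower. With the level of thalamus markers as a covariate 444 genes passed, 385 higher and 59 lower, and with that of blood markers 252 passed, 219 higher and 33 lower. The part of these tissues in the comparison was not tested beyond these fits.

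Among all genes the share called higher grew with the mean level. It was 0.062% in the lowest of 10 bins by mean log2 CPM and 12% in the highest, where 0.496% were lower. In that highest bin were 16 of the 17 presynaptic and 16 of the 18 postsynaptic genes, so their counts stand against 12% as well as against 4.21%, while 10 of 64 cytosolic ribosomal genes were in it. Locus length, matched for 87.1% of the tested genes in RefSeq's GRCr8 table, ran in the same direction, with 3.35% called higher in the shortest bin and 6.9% in the longest. The median locus was 37995 bases in genes called higher and 18606 bases in those called lower, against 25664.5 bases in all. Of the 856 calls 811 matched a protein-coding gene, as did 13973 of the 16120 tested genes. Of 16 lncRNAs and 18 microRNA genes 0 passed by edgeR or DESeq2, with 0 and 1 at an unadjusted p under 0.05. With 5.31% of all genes called, classes this small could not show fewer calls. An unadjusted p under 0.05 was found for 3220 of all 16120 genes.

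**Figure D5:**
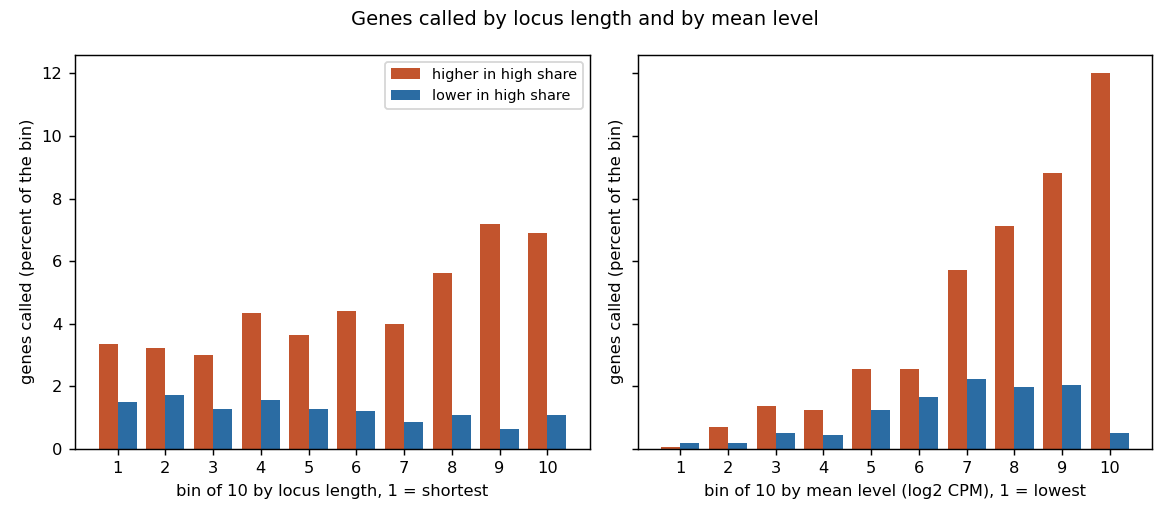
Percent of genes called higher (orange) and lower (blue) in the high share class, in 10 bins of equal size by locus length (left) and by mean level (right). Calls in the higher direction go from 0.062% in the lowest to 12% in the highest bin by level and from 3.35% to 6.9% from the shortest to the longest locus.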

How the data were processed

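Hippocampal polyA RNA of 20 rats was sequenced by the authors as strand-specific, single-end libraries, aligned to Rno6 with Hisat2 and counted per Ensembl gene with HTSeq-count, whose mode, strand setting and version are not given in the sources used here. The authors deposited raw counts, whole numbers without normalization, for 32623 genes, with 37603623 to 47239480 counts per library. The kit is an mRNA kit per the labels and a total RNA kit per the paper. Entries for uncounted reads, listed for male Del/+ replicates 4 and 5 (14.1% and 14.4% outside genes, 39.1% and 40.7% aligned to several places), were left out. All 190 pairs of libraries differed by more than sampling noise (chi-square per degree of freedom at least 11.2).

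Counts were analysed in R 4.3.3 with edgeR 4.0.16 (TMM, filterByExpr with a minimum count of 10, robust quasi-likelihood F test, genotype and share class as terms). Benjamini-Hochberg adjustment covered all genes tested except AY172581.24. Each SE is the size of the log2 difference over the root of F, and CPM are TMM-scaled. Alternatives were DESeq2 1.42.0, limma-voom (limma 3.58.1), other scalings, filters, covariates, limits and subsets of libraries. DESeq2 and limma-voom calls, like the main test, were tested on simulated data. The share class, the gene lists and the genes to be named were chosen with earlier results of these data known. Named genes were every mitochondrial row with enough counts, the 10 smallest p-values in each direction among genes with a symbol, up to 3 members per list, Tfam, Lrpprc and label checks (some of these are not reported here), while AABR07015081.2, the Rfam families and the 3 fits without libraries or with marker levels were chosen after values were seen, as were Rpl4, Rpl6 and Rpl7. The lists named above and here cover all lists described. Inhibitory neurons, oligodendrocytes, their precursors, meninges, neocortex, male-specific and X-linked escape genes had 0 calls by edgeR (unadjusted p under 0.05 for 0, 0, 0, 1, 0, 0 and 2 genes, DESeq2 calls 0, 0, 0, 1, 0, 3 and 2). Of all 16120 genes tested, 3220 had an unadjusted p under 0.05. Astrocytes had 1 call (Sox9) and the deleted region 1 (Maz), and 1 nuclear lncRNA of its list was found, which did not pass. Gene symbols were matched to RefSeq's GRCr8 table for biotype and locus length, which spans introns, and coding length was not used. A check of promoter base composition was void, since 71.2% of tested genes had a promoter sequence. A count of 0 in a library allows up to 3 counts, for counting error only, since molecules were not tagged before amplification.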

Additional observations from a re-analysis of the deposited data

Results flagged for a closer look

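In 152 sets of values, each a gene, a list or the share itself in 1 group or class, 13 had a library far from the others, where chance gives about 1 in 20. In the low share class male Del/+ replicate 5 stood above the rest for Sox9 at 36.1 CPM, Ccar2 at 70.4 CPM, AABR07015081.2 at 30.6 CPM and AABR07015042.1 at 1.58 CPM. Female wt replicate 2 was low for Mvb12b at 105 CPM, male Del/+ replicate 4 was high for Lrpprc at 145 CPM, and male Del/+ replicate 3 was high for summed choroid plexus markers at 869 CPM.

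In the high share class female wt replicate 3 stood apart most often. It was high for Ttc39b at 25.5 CPM, summed signal recognition particle RNA at 4660 CPM and summed thalamus markers at 580 CPM, and low for Grin1 at 420 CPM. Without it 1099 genes passed, 799 higher and 300 lower. Female Del/+ replicate 2 was high for AABR07015042.1 at 26.0 CPM and female Del/+ replicate 1 low for Klhdc2 at 45.4 CPM. Why these libraries differed was not tested.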

How the results depend on the processing

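The number of genes called, 856 (679 higher, 177 lower), stayed within 1.5 times under DESeq2 size factors, TMM without mitochondrial rows, limma-voom, a minimum count of 50, limits of 7% and 6%, and log2 share in all 20 libraries. It moved to 292 (262 and 30) with sex, to 301 (255 and 46) with log2 share and sex, to 7324 (171 and 7153) by library size alone, and to 0, 0 and 0 in wt, female or male libraries by edgeR. DESeq2 gave 1325, of which 344 were lower, an adjusted p under 0.1 gave 1418, of which 457 were lower, and no filter left 98 lower. Chosen after the data were seen, DESeq2 on wt libraries gave 164 (123 and 41), and the fits without 2 choroid-rich libraries or with thalamus or blood markers gave 410 (368 and 42), 444 (385 and 59) and 252 (219 and 33). Leaving out 1 library gave 493 to 1142 calls, 416 to 853 higher and 67 to 300 lower. Calls in the higher direction moved by over 1.5 times without male Del/+ replicate 2 (426) and replicate 3 (416). Calls in the lower direction moved so without female wt replicates 1 (111), 2 (76) and 3 (300), female Del/+ replicates 1 (84), 3 (98) and 5 (115), male wt replicates 1 (113) and 2 (105), and male Del/+ replicates 2 (67), 3 (84), 4 (72) and 5 (289). The cause of these moves was not tested. No nuclear gene given above with a log2 difference changed sign. Mt-co1 went to between -0.13 and -0.02 and Mt-nd3 to between -0.26 and -0.02 under some of the other covariates, subsets and scalings, and Mt-nd3 to -0.01 without male Del/+ replicate 5.

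With the replicate number as a block, 288 genes passed, 271 higher and 17 lower. Same-numbered libraries of different groups correlated from -0.21 to 0.45 in their deviations, with a median of 0.009, against 0.008 for other numbers. Of 20 libraries 6 correlated best with their own number. Whether same-numbered libraries share more than a number cannot be told from these values. Depth limits calls for low genes, with 0.062% higher in the lowest bin by level.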
